A study of Mus musculus with 18 samples.

Results

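The canonical Wnt pathway was followed in sorted intestinal Lgr5+ cells through 10 genes, Axin2, Nkd1, Notum, Sp5, Tcf7, Lef1, Tcf7l1, Tcf7l2, Ctnnb1 and Apcdd1. They were taken from the count tables by gene symbol, each had exactly 1 row, and they are 10 of the 43346 genes in the table, all of them among the 26717 genes tested. The cells came from untreated C57BL/6 mice of 8 to 20 weeks by the labels (the study's methods give a wider age range) with the genotype spelled Lgr5_eGFP_Iris_creERT2 in the labels, an allele that places eGFP and a tamoxifen-inducible Cre under the Lgr5 promoter. Every group carried this allele, and none was treated. EPCAM+ cells with high, medium and low GFP, which stand for the centre, the border and row >3 of the crypt, were sorted from the small intestine (SI) and the large intestine (LI), which gives 6 groups of 3 replicates, 18 libraries together. The groups are therefore gates on GFP and not measured positions, expression of this allele is known to be patchy between crypts, and the labels give neither the mouse behind a replicate number nor the segment of the SI. The study describes the replicates as biological and as separate mice.

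In canonical signalling, Wnt ligands at the crypt base stabilise β-catenin, encoded by Ctnnb1, which enters the nucleus and binds DNA through the TCF/LEF factors encoded by Tcf7, Lef1, Tcf7l1 and Tcf7l2. Axin2, Nkd1, Notum and Apcdd1 are target genes whose products dampen the pathway. Axin2 is a scaffold of the complex that degrades β-catenin, Nkd1 binds Dishevelled, Notum is a secreted enzyme that removes the lipid from Wnt ligands, and Apcdd1 is a membrane protein that inhibits Wnt at the cell surface. Sp5 is a zinc finger transcription factor and a direct target. In the intestine this pathway maintains Lgr5+ stem cells and Paneth cells.

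The normalised count of Lgr5, the gene behind the gate, was 3959 ± 1423 (SD, n = 3) in SI centre, 1265 ± 982 in SI border and 159 ± 126 in SI row >3, and 2359 ± 201, 1451 ± 249.03 and 287 ± 168 in the LI groups in the same order. The SI border libraries held 1610, 2028 and 157, and replicate 3 lay within the range of SI row >3 (28.1 to 279.6), so that library did not carry the Lgr5 level of the other border libraries. Epcam lay between 14654 and 24706 in all 18 libraries. Library totals ranged from 8312093 to 31940965 counts, with the lowest in SI border replicate 1. The summed level of 6 goblet cell markers, led by Muc2 and Fcgbp, was 665 to 9967 CPM (counts scaled to a common library total after adjustment by TMM factors) in SI centre, 4099 to 13061 in SI border and 30461 to 49421 in SI row >3, and 6723 to 10667, 8878 to 13331 and 14838 to 23205 CPM in the LI groups. In the SI, 6 absorptive markers summed to 68.5 to 183 CPM in centre and 652 to 1436 CPM in row >3, and in the LI to 118 to 145 and 191 to 297 CPM. The 6 Paneth cell markers summed to 1689 to 7840 CPM in SI centre, 556 to 6038 in SI border and 215 to 4592 in SI row >3, and to at most 12.5 CPM in any LI library. The 6 tuft cell markers summed to 31.3 to 457, 332 to 1037 and 104 to 436 CPM in the same SI groups. The summed goblet and absorptive markers were thus higher in row >3 than in centre at both sites, and in row >3 higher in every SI library than in any LI library. Absorptive markers at the border summed to 191 to 851 CPM in the SI and 86.4 to 210 CPM in the LI, which overlapped LI centre. Paneth markers were higher in every SI library than in any LI library, and within the SI their overlapping ranges lay lower from centre to row >3. Single markers could go the other way, with the goblet marker Clca1 at means of 43.6, 23.4 and 10.4 CPM and the Paneth marker Mmp7 at 54.0, 98.5 and 119.5 CPM in SI centre, border and row >3, and the absorptive marker Fabp1 at 0.716 CPM in LI centre and 0.167 CPM in LI row >3. The part of these cells in the differences described here was not tested. The 7 stromal markers summed to at most 17.6 CPM and the 9 immune markers, led by Ptprc and Itgam, to at most 77.7 CPM in any library, and the T cell markers Cd3e and Cd8a had at most 8 and 7 counts. In bulk samples, fewer cells of a type and less RNA per cell cannot be told apart.

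The 3 SI libraries of replicate 3 stood apart. For genes high in all LI libraries and low in SI replicate 1, the median level relative to the LI was 64.3% for replicate 3 of SI centre, 84.7% for that of SI border and 79.7% for that of SI row >3, against 1.63%, 1.38% and 1.09% for replicate 2. If these libraries came from another segment of the gut or were mislabelled, which was not tested, SI values over all 18 libraries would mix 2 kinds of sample. The main tests of the 10 genes are therefore given with all 18 libraries and, where a call changed, also without these 3, which were left out together. Levels per length and correlations use all 18. Since the 3 libraries were singled out by their likeness to the LI, leaving them out favours differences between SI and LI, so counts, values and differences of steps between SI and LI without them are given as descriptions that support no difference between the sites.

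Sp5 and Axin2 are target genes that fell together between SI centre and row >3, so the 250 bases before their start sites are shown (RefSeq, GRCm38.p6, plus strand, 5′ to 3′). Capitals mark the TCF/LEF core letters CTTTGAT or CTTTGTT, searched on both strands, the minus strand reading as ATCAAAG and AACAAAG.
Sp5, chr2:70474673-70474922: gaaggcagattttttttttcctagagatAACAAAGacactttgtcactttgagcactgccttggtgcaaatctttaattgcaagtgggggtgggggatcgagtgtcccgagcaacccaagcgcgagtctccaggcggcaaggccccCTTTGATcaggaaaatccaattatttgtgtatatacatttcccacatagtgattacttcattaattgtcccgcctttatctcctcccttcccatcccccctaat
Axin2, chr11:108920099-108920348: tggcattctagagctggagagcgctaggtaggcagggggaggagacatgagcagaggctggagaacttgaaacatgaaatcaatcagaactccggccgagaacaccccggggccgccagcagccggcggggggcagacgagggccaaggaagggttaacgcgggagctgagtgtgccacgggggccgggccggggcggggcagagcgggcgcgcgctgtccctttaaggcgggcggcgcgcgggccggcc
The Sp5 window held 1 match to each motif, CTTTGTT on the minus strand beginning 222 bases before the start and CTTTGAT on the plus strand beginning 104 bases before it. The Axin2 window held neither, which says only that these letters are not in these 250 bases. Over 14 windows of 8 of the genes, 2 held a match, that of Sp5 and the second window of Tcf7l2, whose CTTTGTT begins 14 bases before the start. Of all 32851 windows of this length, 3.21% held CTTTGAT, 5.03% held CTTTGTT and 8.06% held either. A match is a description of the letters and not a bound site.

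Among the steps between gates, that in the SI from centre to row >3 had the largest number of members called (edgeR, all 18 libraries). Axin2, Sp5, Tcf7, Lef1 and Apcdd1 were lower in row >3 and Tcf7l2 was higher, so 6 of the 10 genes passed the test (Benjamini-Hochberg adjusted p under 0.05 over all genes tested, edgeR). Over all genes tested 13.2% were called in this comparison, 5.82% lower and 7.35% higher. The median log2 fold change of the 10 genes was -1.53, beside a median of 0 over all genes. Without SI replicate 3 the same 6 genes were called, beside 17.1% of all genes. With replicate numbers as blocks inside each site, Tcf7l1 was called as well, beside 22.8% of all genes. DESeq2 gave Tcf7l1 no adjusted p in any comparison, so its counts leave that gene out. In the LI edgeR called no member between centre and row >3, although 3 had an unadjusted p under 0.05, as had 1859 of all genes, and 0.0187% of all genes were called. DESeq2 called none of 7 members, giving no adjusted p for Notum, Lef1 and Tcf7l1. With the replicate block within site Axin2, Tcf7 and Apcdd1 were called lower in LI row >3, beside 2.59% of all genes.

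**Figure D1:**
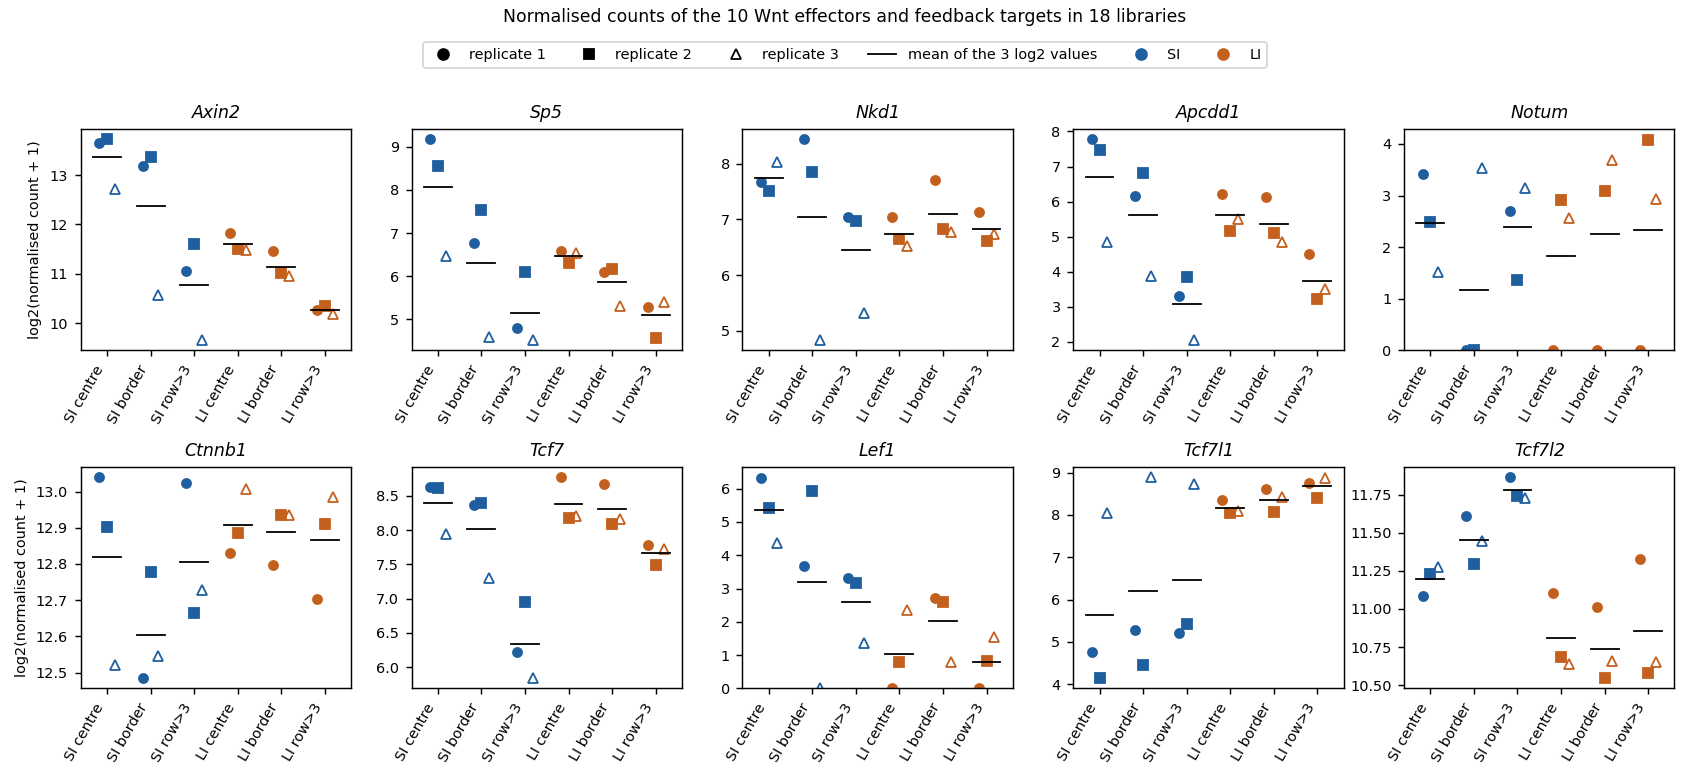
Normalised counts of the 10 genes by library, as log2 of the count plus 1 (vertical axis) in the 6 groups (horizontal axis). Symbols are single libraries, open triangles are replicate 3, blue is SI, orange is LI and lines are means of the log2 values. Axin2, Sp5, Apcdd1 and Tcf7 lie lower in row >3 than in centre at both sites, and the open triangles of the SI lie apart from the other SI libraries for Tcf7l1.

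Among the feedback genes, Axin2 (ENSMUSG00000000142, chr11:108920349-108950783, plus strand, mm10) was by far the highest. Its normalised counts were 12806, 13532 and 6724 in SI centre, 9296, 10536 and 1535 in SI border and 2134, 3129 and 807 in SI row >3. Replicate 3 was the lowest library in each SI group, and the centre and row >3 libraries did not overlap. Axin2 fell by 2.44 on the log2 scale from centre to row >3 (SE 0.59, a 5.44-fold lower level, adjusted p = 0.0155), and by 2.32 without SI replicate 3 (SE 0.19, adjusted p = 1.81e-08). The adjusted p was 0.0501, 0.0505, 0.0675 and 0.0581 when SI centre replicate 1, SI centre replicate 2, SI row >3 replicate 1 or SI row >3 replicate 3 was left out alone. Between border and row >3 the log2 fold change was -1.79 (SE 0.58, adjusted p = 0.158), and it passed the test without SI replicate 3 (-1.88, SE 0.19, adjusted p = 1.21e-05) and with the replicate block within site (-1.66, adjusted p = 0.00523).

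In the LI, Axin2 stood at 3649, 2894 and 2851 in centre, 2834, 2069.8 and 1991 in border and 1241, 1311 and 1174 in row >3. The 3 groups formed separate steps without overlap between neighbours. The log2 fold change was -0.45 from centre to border (SE 0.56, adjusted p = 1), -1.33 from centre to row >3 (SE 0.57, adjusted p = 0.677) and -0.88 from border to row >3 (SE 0.57, adjusted p = 1). These SEs rest on 1 spread shared by all 6 groups, in which SI replicate 3 takes part. Without it the difference of row >3 from centre passed the test (-1.34, SE 0.15, adjusted p = 5.11e-05), as did that from border (-0.88, SE 0.15, adjusted p = 0.0206). With the replicate block within site, row >3 against centre gave -1.32 (adjusted p = 0.0402).

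Apcdd1 (ENSMUSG00000071847, chr18:62922231-62961179, plus strand) had the largest log2 fold change of the 10 genes between SI centre and row >3. Its counts were 219, 178 and 28.0 in SI centre, 70.8, 113 and 13.7 in SI border and 8.89, 13.4 and 3.12 in SI row >3. Replicate 3 was again the lowest in each group, and its centre library was still above all row >3 libraries. Apcdd1 fell by 3.91 on the log2 scale (SE 0.76, 15-fold lower, adjusted p = 0.00151), and by 4.15 without SI replicate 3 (SE 0.51, adjusted p = 2.9e-06). From border to row >3 the libraries did not overlap either, and the value of -2.74 (SE 0.84, adjusted p = 0.104) passed the test without SI replicate 3 (-3.08, adjusted p = 0.00268) and with the block (-3.05, adjusted p = 0.000587). Single libraries left out moved it from -1.88 (without SI border replicate 2, adjusted p = 0.557) to -3.30 (without SI border replicate 3, adjusted p = 0.0169).

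LI libraries held Apcdd1 at 72.9, 35.0 and 44.2 in centre, 68.8, 33.7 and 27.5 in border and 21.9, 8.35 and 10.4 in row >3. Row >3 lay below centre and below border in every library. The log2 fold changes of row >3 were -1.87 against centre (SE 0.77, adjusted p = 0.62) and -1.68 against border (SE 0.78, adjusted p = 1). The first passed the test only with the replicate block within site (-1.92, adjusted p = 0.0211).

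Sp5 (ENSMUSG00000075304, chr2:70474923-70477729, plus strand), whose promoter is printed above, was the member with the lowest adjusted p between SI centre and border, without passing the test with all libraries. It was measured at 577, 378 and 87.7 in SI centre, 109, 184 and 23.1 in SI border and 26.7, 67.9 and 21.9 in SI row >3. Centre and border overlapped only through replicate 3, which was lowest throughout. The log2 fold change from centre to border was -1.77 (SE 0.60, adjusted p = 0.358), the value without SI replicate 3 was -1.67 (SE 0.36, adjusted p = 0.0206) and that with the replicate block within site was -1.69 (adjusted p = 0.0117). DESeq2 gave -1.73 (adjusted p = 0.167). With single libraries left out it ranged from -1.19 (without SI centre replicate 1, adjusted p = 0.782) to -2.63 (without SI border replicate 2, adjusted p = 0.0895), and of the 6 only the fit without SI centre replicate 3 passed (-2.23, adjusted p = 0.0274). Sp5 was the only member called between SI centre and border under any alternative run here. With all 18 libraries edgeR called no member there, nor did DESeq2 among the 9 it gave an adjusted p, 1 had an unadjusted p under 0.05, as had 2399 of all genes, and 0.0112% of all genes were called, beside 0.963% without SI replicate 3 and 2.32% with the block.

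From SI centre to row >3, Sp5 fell by 3.10 on the log2 scale (SE 0.64, 8.59-fold lower, adjusted p = 0.00326), and by 3.36 without SI replicate 3 (SE 0.38, adjusted p = 9.88e-07). It was -2.52 without SI centre replicate 1 and -3.79 without SI row >3 replicate 2, and it passed the test with each single library left out. From border to row >3 it was at -1.34 (SE 0.68, adjusted p = 0.424), and it passed the test without SI replicate 3 (-1.69, adjusted p = 0.0217) and with the block (-1.56, adjusted p = 0.03). Single libraries left out moved it from -0.47 (without SI border replicate 2, adjusted p = 0.98) to -2.02 (without SI row >3 replicate 2, adjusted p = 0.251). The LI libraries held 95.3, 78.7 and 91.6 in centre, 67.9, 71.1 and 38.7 in border and 38.3, 22.8 and 41.5 in row >3. Centre lay above border and above row >3 in every LI library. The log2 fold changes against centre were -0.61 for border (SE 0.64, adjusted p = 1) and -1.38 for row >3 (SE 0.67, adjusted p = 0.731, and 0.0731 without SI replicate 3).

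Nkd1 (ENSMUSG00000031661, chr8:88521354-88594884, plus strand) was lower in SI row >3 without passing the test over all genes. It was at 204, 181 and 261 in SI centre, 347, 231 and 27.4 in SI border and 131, 125 and 39.0 in SI row >3. Row >3 lay below centre in every library, with a log2 fold change of -1.07 (SE 0.53, adjusted p = 0.23). The value without SI replicate 3 was -0.59 (SE 0.32, adjusted p = 0.266). In border, replicate 3 lay far below the other 2 libraries. Against border, Nkd1 in row >3 was at -0.88 (SE 0.55, adjusted p = 0.562) with all libraries, at -0.78 (adjusted p = 0.474) with the replicate block within site and at -1.10 (SE 0.33, adjusted p = 0.0454) without SI replicate 3. Single libraries left out moved it from -0.30 (without SI border replicate 1, adjusted p = 0.99) to -1.43 (without SI border replicate 3, adjusted p = 0.0296). In the LI the 9 libraries spread from 90.8 to 207 and the groups overlapped.

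Notum (ENSMUSG00000042988, chr11:120653788-120661175, minus strand) was close to absent at this depth. It had at most 21 raw counts in any library and 0 in 5 of the 18, with normalised counts from 0 to 15.9 and group means from 3.51 to 7.51. No direction can be read from these counts, and Notum is left out of the plots of fold changes. Notumos and Myadml2os, which overlap it on the other strand, had at most 1 and 0 counts.

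Ctnnb1 (ENSMUSG00000006932, chr9:120929216-120960507, plus strand), the effector itself, was called in no comparison. Its counts were 8419, 7646 and 5875 in SI centre, 5728, 7027 and 5981 in SI border and 8323, 6494 and 6783 in SI row >3, and the LI libraries lay between 6671 and 8239. The groups within each site overlapped. Group means ranged from 6246 ± 689 (SD, n = 3) in SI border to 7693 ± 492 in LI centre. Only SI border lay apart from its LI counterpart, below every LI border library, with a log2 fold change of -0.34 (SE 0.15, adjusted p = 0.293).

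The TCF/LEF factors moved in different directions. Tcf7, which encodes TCF1, and Lef1 were lower in SI row >3, Tcf7l2, which encodes TCF4, was higher, and Tcf7l1, which encodes TCF3 and is known mainly as a repressor, differed between SI replicates 1 and 2 and the other libraries. Tcf7 (ENSMUSG00000000782, chr11:52252371-52283014, minus strand) was at 397, 389.5 and 245 in SI centre, 328, 337 and 157 in SI border and 73.9, 123 and 56.2 in SI row >3. Row >3 lay below centre and border in every library, while centre and border overlapped. Tcf7 fell by 1.99 on the log2 scale from centre to row >3 (SE 0.32, 3.98-fold lower, adjusted p = 0.000245), and by 2.00 without SI replicate 3 (SE 0.29, adjusted p = 2.02e-05).

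Tcf7 was also the only member that edgeR called between SI border and row >3 with all libraries and no block, where 1.61% of all genes were called. DESeq2 called Axin2, Tcf7 and Apcdd1, beside 1304 of all genes. The fall was 1.63 on the log2 scale (SE 0.32, 3.10-fold lower, adjusted p = 0.0145). This call was lost when SI border replicate 1 (adjusted p = 0.054), SI border replicate 2 (adjusted p = 0.105) or SI row >3 replicate 1 (adjusted p = 0.145) was left out. Without SI replicate 3, 5 members were called between border and row >3 (Axin2, Nkd1, Sp5, Tcf7 and Apcdd1, all lower) beside 7.23% of all genes, and with the block 4 were called (Axin2, Sp5, Tcf7 and Apcdd1) beside 9.78%. In the LI, Tcf7 was at 436, 289 and 294 in centre, 408, 271 and 286 in border and 219.5, 178 and 210.3 in row >3, where it lay below every centre and border library. The log2 fold changes of row >3 were -0.73 against centre (SE 0.30, adjusted p = 0.609, and 0.0374 with the replicate block within site) and -0.66 against border (SE 0.30, adjusted p = 1).

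Lef1 (ENSMUSG00000027985, chr3:131110471-131224356, plus strand) was a low gene found mainly in the SI. Its counts were 79.4, 41.4 and 19.6 in SI centre, 11.8, 59.6 and 0 in SI border and 8.89, 7.90 and 1.56 in SI row >3. The LI libraries lay between 0 and 5.50, and 3 of the 18 libraries had no count. Lef1 fell by 2.74 on the log2 scale from SI centre to row >3 (SE 0.75, 6.68-fold lower, adjusted p = 0.0129, and 0.000949 without SI replicate 3). The call was lost with DESeq2 (-2.90, adjusted p = 0.0702) and without SI centre replicate 1 (-2.11, adjusted p = 0.126) or SI row >3 replicate 1 (-3.04, adjusted p = 0.0514).

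Tcf7l2 (ENSMUSG00000024985, chr19:55741820-55933654, plus strand) was the most abundant factor of the family and the only member that edgeR called higher outside the centre without a block. It was at 2170.0, 2396 and 2474 in SI centre, 3119, 2513 and 2785 in SI border and 3725, 3425 and 3389 in SI row >3. By normalised counts these 3 groups formed ascending steps with no overlap between neighbours, and SI replicate 3 did not stand apart. By CPM, SI centre replicate 3 (121.8) lay just above SI border replicate 2 (121.6), so centre and border overlapped. Tcf7l2 was 1.5-fold higher in row >3 than in centre (log2 fold change 0.59, SE 0.18, adjusted p = 0.0321, and 0.0341 without SI replicate 3). The neighbouring steps were smaller, at 0.25 from centre to border (SE 0.18, adjusted p = 0.768) and 0.34 from border to row >3 (SE 0.18, adjusted p = 0.437). The call of row >3 against centre was lost with library size alone as the scaling (0.40, adjusted p = 0.237), with no filter on low counts (0.59, adjusted p = 0.0518), and without SI centre replicate 1 (adjusted p = 0.133), SI centre replicate 2 (adjusted p = 0.0857), SI row >3 replicate 1 (adjusted p = 0.107) or SI row >3 replicate 2 (adjusted p = 0.0505). In the LI, Tcf7l2 ranged from 1493 to 2569 and the groups overlapped. Ppnr, a transcript inside an intron of Tcf7l2 on the same strand, had up to 1232 counts and overlaps none of its exons.

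Tcf7l1 (ENSMUSG00000055799, chr6:72626378-72789254, minus strand) was low in SI replicates 1 and 2 and high in the LI and in SI replicate 3. Its counts were 25.9, 16.6 and 263 in SI centre, 37.8, 20.7 and 474 in SI border and 36.2, 41.9 and 425 in SI row >3, against 262 to 469 in the 9 LI libraries. Replicates 1 and 2 of the SI were thus below every LI library, and replicate 3 lay inside or just above the LI range. Within the LI, Tcf7l1 was at 323, 262 and 272 in centre and 435, 339 and 469 in row >3, higher in every row >3 library. The log2 fold change was 0.54 (SE 1.10, adjusted p = 0.994, edgeR). This SE rests on the spread shared by all 6 groups, in which SI replicate 3 takes part. Without SI replicate 3 the LI value was 0.53 (SE 0.21, adjusted p = 0.24). From SI centre to row >3 the log2 fold change was 0.62 (SE 1.21, adjusted p = 0.855) with all libraries, 0.86 (SE 0.47, adjusted p = 0.265) without SI replicate 3 and 0.77 (adjusted p = 0.034) with the replicate block within site. It turned to -1.36 when SI row >3 replicate 3 alone was left out. Gm15401, an antisense gene that shares 179 exonic bases with Tcf7l1, had normalised counts from 0 to 53.7 in SI replicates 1 and 2, 142 to 1018 in SI replicate 3 and 103 to 426 in the LI. Since the strand setting of the counting is not given in the sources used here, reads of these 2 genes cannot be told apart with certainty.

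**Figure D2:**
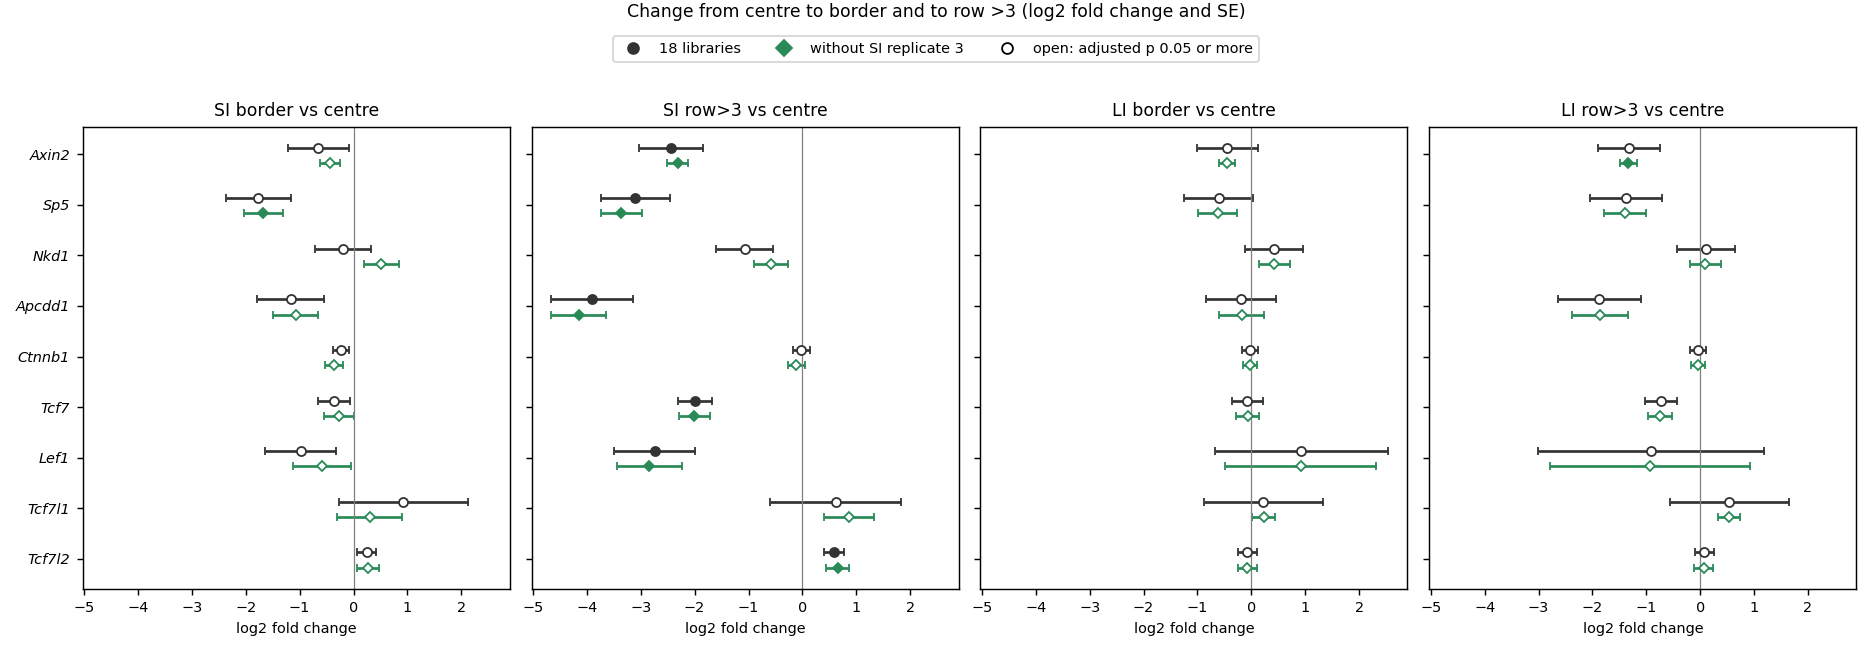
Log2 fold change against centre (horizontal axis) of 9 members, for border and row >3 in each site. Points are estimates and bars their SE, black with all 18 libraries and green without SI replicate 3, and filled symbols passed the test. In SI row >3, 5 members were called lower and Tcf7l2 higher under both, while in the LI Axin2 in row >3 alone passed without SI replicate 3.

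Between LI centre and border no member passed the test with edgeR, none had an unadjusted p under 0.05 and DESeq2 called none of 9. Of all genes tested 0% were called by either tool, and 368 had an unadjusted p under 0.05. Axin2 and Sp5 were nevertheless below every centre library in all 3 border libraries, so 2 of 10 members did not overlap, beside 6.03% of all genes. Between LI centre and row >3, 5 of 10 members did not overlap (Axin2, Sp5, Tcf7 and Apcdd1 lower, Tcf7l1 higher), beside 15.9% of all genes. Without SI replicate 3 Axin2 passed the test here, beside 1.90% of all genes. Between LI border and row >3 edgeR called no member and DESeq2 none of 9, 2 had an unadjusted p under 0.05, 0% of all genes were called and 993 had an unadjusted p under 0.05, and without SI replicate 3 Axin2 was called beside 0.0802% of all genes.

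Whether the steps differed between the sites was tested directly. Mean Lgr5 at a gate was not equal between the sites. Its normalised count was 3959 in centre and 159 in row >3 of the SI, and 2359 and 287 in the LI. The part of this in the differences between the sites was not tested. For border against centre edgeR called no member as differing between SI and LI and DESeq2 none of 9, with 0 members at an unadjusted p under 0.05 and 0% of all genes called (708 at an unadjusted p under 0.05), or 0.160% without SI replicate 3. For row >3 against centre edgeR called no member with all 18 libraries and DESeq2 none of 8 (Notum and Tcf7l1 had no adjusted p), 1 member had an unadjusted p under 0.05, and 0% of all genes were called (1800 at an unadjusted p under 0.05). The SI step of Axin2 differed from the LI step by -1.12 on the log2 scale (SE 0.80, adjusted p = 0.965) and with the replicate block within site by -1.30 (adjusted p = 0.136). Without SI replicate 3 the value was -0.98 (SE 0.24) and 3.27% of all genes were past the threshold, which is a description as above. The difference for Tcf7 was -1.26 (SE 0.43, adjusted p = 0.459), and it passed the test with the replicate block within site (-1.33, adjusted p = 0.0187), beside 2.32% of all genes. For Sp5 it was -1.72 (SE 0.93, adjusted p = 0.817). Tcf7l2 and Ctnnb1 were at 0.51 (SE 0.25) and 0.02 (SE 0.21), with adjusted p = 0.752 and 1.

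Set against the LI at the same gate, SI centre cells held more Lef1. Gates of the same name differed in mean Lgr5, at 3959 in SI centre and 2359 in LI centre, with overlapping libraries. Lef1 summed to 164 counts in the 3 SI centre libraries and 6 in the 3 LI centre libraries, a log2 fold change of 4.62 (SE 0.97, adjusted p = 0.00863), and it was the only member called by edgeR, beside 1.99% of all genes. DESeq2 called Axin2 (adjusted p = 0.00659), Sp5 (adjusted p = 0.0304) and Lef1 (adjusted p = 0.00994), beside 1241 of all genes. The call was lost without SI centre replicate 1 (3.99, adjusted p = 0.0797) or LI centre replicate 2 (4.20, adjusted p = 0.0849), and the value was 6.34 (adjusted p = 0.0429) without LI centre replicate 3, so its size is uncertain with 6 counts in the LI. Axin2 and Nkd1 were also above every LI centre library, at 1.76 (SE 0.58, adjusted p = 0.159) and 0.97 (SE 0.53, adjusted p = 0.434). The members that did not overlap were thus 3 of 10, beside 19.6% of all genes.

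Once SI replicate 3 was left out, 5 members were past the threshold between SI and LI centre, beside 10.9% of all genes. Axin2 was higher in the SI by 2.06 (SE 0.16), Sp5 by 2.42 (SE 0.31, against 1.92 with all libraries, adjusted p = 0.107), Apcdd1 by 2.01 (SE 0.36, against 1.47, adjusted p = 0.236) and Lef1 by 5.02 (SE 0.77). Tcf7l1 was lower in the SI, with a log2 fold change of -3.74 (SE 0.35), against -1.55 (SE 1.17, adjusted p = 0.633) with all libraries. Each of these sets 2 SI libraries against 3 LI libraries.

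At the border edgeR called no member with all 18 libraries, beside 1.75% of all genes, and 4 had an unadjusted p under 0.05, as had 3706 of all genes. DESeq2 called Axin2 and Tcf7l2, beside 1212 of all genes. Tcf7l2 was above and Ctnnb1 below every LI border library, 2 of 10 members beside 16.1% of all genes, with Tcf7l2 at 0.64 (SE 0.18, adjusted p = 0.0719). With SI replicate 3 left out 5 members were past the threshold, beside 8.10% of all genes. Axin2 was then at 2.07 (SE 0.17), against 1.56 (adjusted p = 0.231) with all libraries. Sp5 was at 1.37 (SE 0.41) against 0.76 (adjusted p = 0.732), and it turned to -0.10 when SI border replicate 2 alone was left out. Tcf7l1 was at -3.66 (SE 0.39) against -0.85 (adjusted p = 0.881). Tcf7l2 was at 0.66 (SE 0.19). Lef1 was at 3.53 (SE 0.85) against 2.71 (adjusted p = 0.2), and at 0.08 (adjusted p = 1) without SI border replicate 2, so its value rests on that library.

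In row >3, Tcf7 was lower and Tcf7l2 higher in the SI than in the LI, 2 of 10 members beside 4.09% of all genes called. Tcf7 was at -1.29 (SE 0.32, 2.44-fold lower, adjusted p = 0.0206) and Tcf7l2 at 0.83 (SE 0.18, 1.78-fold higher, adjusted p = 0.00842). These were also the 2 members whose libraries did not overlap, beside 18.9% of all genes. Tcf7 lost its call when any of SI row >3 replicate 1, SI row >3 replicate 3 or the 3 LI row >3 libraries was left out (adjusted p = 0.17, 0.0683, 0.0512, 0.0547 and 0.0815), and Tcf7l2 lost it without LI row >3 replicate 2 (adjusted p = 0.0629) or replicate 3 (adjusted p = 0.052). Without SI replicate 3, Tcf7 (-1.06, SE 0.28) and Tcf7l2 (0.91, SE 0.19) were past the threshold together with Axin2 (1.08, SE 0.17) and Tcf7l1 (-3.41, SE 0.30), beside 12.2% of all genes. With all libraries these last 2 were at 0.64 (adjusted p = 0.71) and -1.47 (adjusted p = 0.658).

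**Figure D3:**
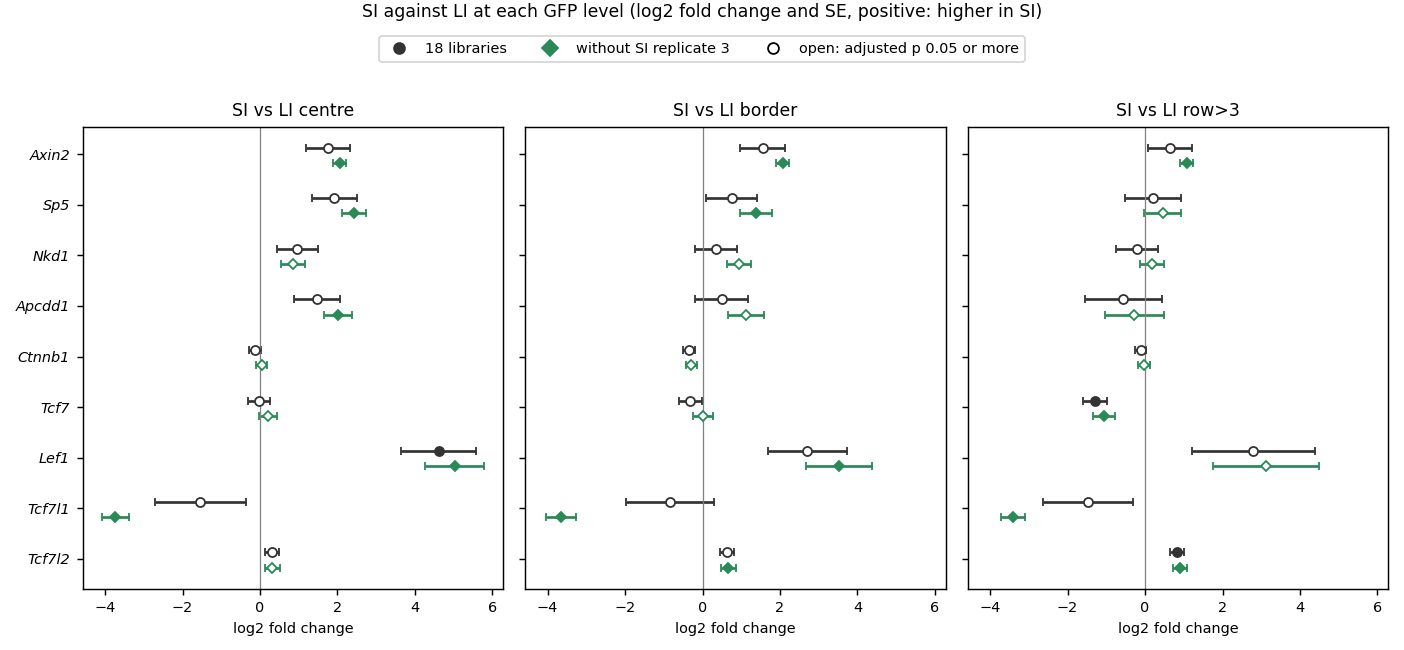
Log2 fold change of SI over LI (horizontal axis) for 9 members at each GFP level, with SE bars, black with all 18 libraries and green without SI replicate 3, filled where the adjusted p was under 0.05 (for the green points a description). Tcf7l1 lies between -3.41 and -3.74 without SI replicate 3 and closer to 0 with it.

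To compare levels between genes, CPM were divided by the length of the merged exons in kilobases. In SI centre, Axin2 was at 97.4 ± 32.4 CPM per kb (SD, n = 3), Ctnnb1 at 68.6 ± 11.7, Tcf7l2 at 13.04 ± 0.96, Sp5 at 8.03 ± 5.67 and Tcf7 at 6.38 ± 1.54, and Axin2 and Ctnnb1 did not differ beyond their spread, nor did Sp5 and Tcf7. Nkd1 followed at 2.31 ± 0.46 and Tcf7l1 at 1.27 ± 1.75, with Apcdd1, Lef1 and Notum below 1. In SI row >3, Ctnnb1 at 67.7 ± 9.02 led, Axin2 at 17.9 ± 10.1 and Tcf7l2 at 19.6 ± 0.927 lay within the spread (23.1 and 46.2 by the longest transcript, apart by more than the spread), and Sp5 and Tcf7 were at 0.899 ± 0.577 and 1.57 ± 0.626. In LI centre, Ctnnb1 was at 75.1 ± 6.18, Axin2 at 28.8 ± 3.41, Tcf7l2 at 10.4 ± 1.69, Tcf7 at 6.54 ± 1.44 and Tcf7l1 at 3.68 ± 0.336.

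By merged exon lengths, the sum of the 4 TCF/LEF genes stayed between 16.97 and 25.7 CPM per kb in all 18 libraries, while its make-up differed. Tcf7l2 made up 59.7% to 63.4% in SI centre, 63.7% to 72.3% in SI border and 74.8% to 91.7% in SI row >3, and 49.95% to 51.4%, 47.96% to 49.8% and 47.9% to 60.1% in the LI groups. Tcf7 accounted for 21.0% to 36.5% in SI centre and 4.15% to 10.5% in SI row >3, and for 30.2% to 33.3% in LI centre and 17.2% to 20.9% in LI row >3. Tcf7l1 held 0.981% to 2.38% in SI replicates 1 and 2, 15.1% to 24.3% in SI replicate 3 and 16.5% to 31.2% in the LI. Lef1 was at most 2.18% in any library. These shares use merged exon lengths. By the longest transcript Tcf7l2 would be at 30.8 in place of 13.04 CPM per kb in SI centre. In SI row >3 it would be at 46.2 in place of 19.6. Both its share and the sum of the 4 genes thus depend on the length taken.

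**Figure D4:**
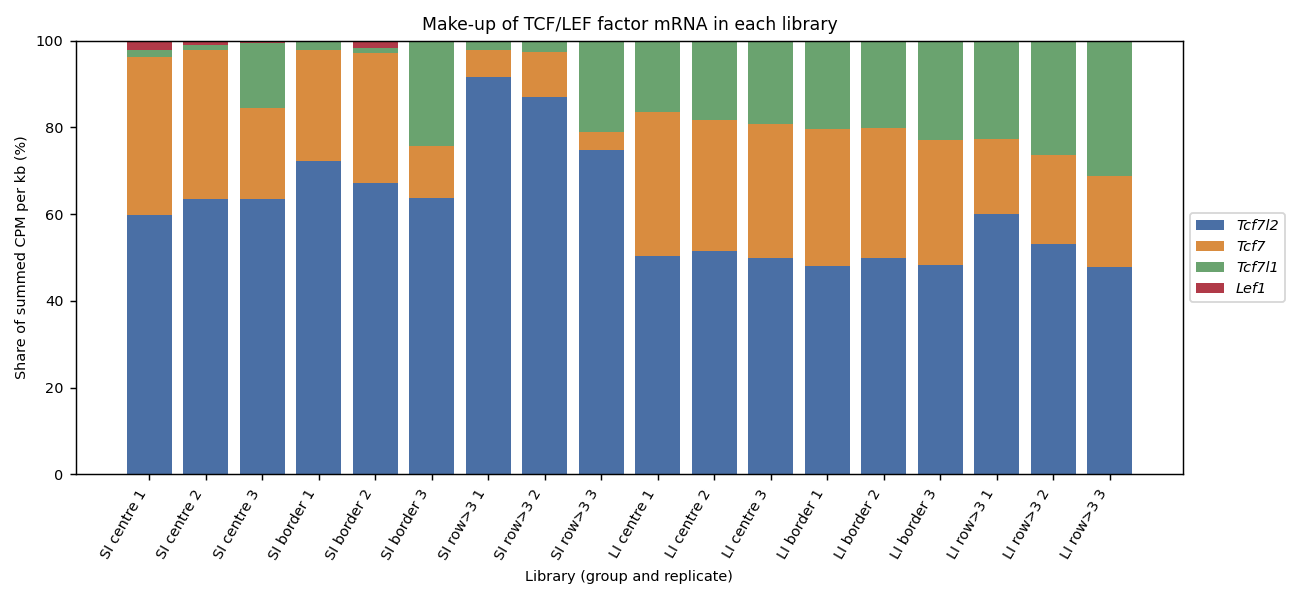
Share of each TCF/LEF gene in the summed CPM per kb of the 4 genes (vertical axis, percent) in each of the 18 libraries (horizontal axis). Tcf7l2 takes the largest share in every library, up to 91.7% in SI row >3 replicate 1, and Tcf7l1 is at 0.981% to 2.38% only in SI replicates 1 and 2.

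Across the 18 libraries, the log2 CPM of Axin2 and Sp5 had a Pearson r of 0.90, Sp5 and Apcdd1 of 0.91, Axin2 and Apcdd1 of 0.86, and Tcf7 and Apcdd1 of 0.85, while Axin2 and Tcf7l1 were at -0.77. The libraries share site, gate and replicate, so these values are descriptions without a test. Outside the 10 genes and among 10216 others with a mean of at least 5 CPM, those most like Axin2 by Pearson r were Msi1 (r = 0.99), Clic6 (0.98) and Dach1 (0.98), and those most like Sp5 were Etv6 (0.94), Grb7 (0.93) and Kif26b (0.93). Closest to Tcf7 by Pearson r were Hmgn1 (0.97), Rasa3 (0.96) and Mcm7 (0.96), which ranked 147, 35 and 46 by Spearman's rho. Close to Tcf7l2 were Tet3 (0.96) and Clip2 (0.95).

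Among 70 other genes of the pathway, of which 69 were tested, 17 were lower and 6 higher in SI row >3 than in centre, beside the 13.2% of all genes given above. Without SI replicate 3 the list had 27 called, beside 17.1% of all genes. Of 12 further intestinal target genes 7 were lower and none was called higher, among them Tnfrsf19 (log2 fold change -3.84, SE 1.06, adjusted p = 0.0311) and Ascl2 (-3.68, SE 0.47, adjusted p = 5.01e-05), a transcription factor of crypt base stem cells. Of 17 genes of receptors and their regulators 7 were lower and 2 higher, with Lgr5 at -4.58 (SE 0.87, adjusted p = 0.00399) as the gate requires, Fzd4 at 2.12 (SE 0.39, adjusted p = 0.000778) and Fzd5 at 0.82 (SE 0.15, adjusted p = 0.000982). Of 17 genes of signal transduction and the destruction complex 1 was lower. Nuclear cofactors had 3 higher and 1 lower of 11 tested, and the secreted antagonists and their co-receptors had 1 higher and 1 lower of 12. These were Kremen2, a receptor for Dkk proteins, at 3.06 (SE 0.63, adjusted p = 0.00206) and Sfrp5 at -3.66 (SE 0.61, adjusted p = 2e-04). Kremen2 was low, with 22 counts summed over the SI centre libraries and 169 over those of SI row >3. Between SI border and row >3, 7 of the 69 were lower, beside 1.61% of all genes, led by the secreted Wnt inhibitor Sfrp5 (-3.05, SE 0.62, adjusted p = 0.0142), Ascl2 (-2.32, SE 0.50, adjusted p = 0.0205) and the Eph receptor Ephb3 (-1.50, SE 0.26, adjusted p = 0.0102). With SI replicate 3 left out 16 were called, beside 7.23% of all genes.

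In the LI the same list held 1 gene called between centre and row >3, Ephb3 (-1.47, SE 0.25, adjusted p = 0.0468), beside 0.0187% of all genes, with 11 called without SI replicate 3, beside 1.90%. Between the sites 3 were higher and 2 lower in SI centre than in LI centre, as at the border, and 5 higher and 4 lower in row >3, beside 1.99%, 1.75% and 4.09% of all genes. The list without SI replicate 3 had 15, 12 and 19 past the threshold, beside 10.9%, 8.10% and 12.2% of all genes, given as a description. Olfm4, a secreted glycoprotein of SI stem cells, had a mean normalised count of 59504 ± 36521 in SI centre, with 34.4 ± 40.8 for LI centre (SD over 3 libraries), 26601.5 ± 26771 and 10.7 ± 9.38 at the border, and 4044 ± 4014 and 0.506 ± 0.877 in row >3. Sfrp5 summed to 1022 counts in SI centre against 7 in LI centre, and to 394 against 2 at the border. Kremen2 summed to only 22 counts in SI centre, against 146 in LI centre. Prox1, a homeobox transcription factor, was higher in the SI by 2.64 (SE 0.58, adjusted p = 0.0292) in centre, 2.43 (SE 0.57, adjusted p = 0.0435) at the border and 3.40 (SE 0.58, adjusted p = 0.00328) in row >3. Kremen2 (-2.76, SE 0.64, adjusted p = 0.0244) and Fzd4 (-2.34, SE 0.38, adjusted p = 0.00155) were lower in SI than LI centre, Fzd3 (-2.29, SE 0.52, adjusted p = 0.0241) and Fzd1 (-1.45, SE 0.35, adjusted p = 0.0319) at the border, and Cd44 (-2.09, SE 0.39, adjusted p = 0.00744), Fzd1 (-1.30, SE 0.35, adjusted p = 0.0371) and Myc (-0.96, SE 0.20, adjusted p = 0.00743) in row >3, where the corepressor Tle4 was higher (1.21, SE 0.24, adjusted p = 0.00494). The list was drawn up with earlier results of these data known, so these counts are descriptions.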

How the data were processed

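RNA of sorted cells was made into SMART-Seq Stranded libraries from 270 pg or more and sequenced as paired 100 nt reads on a NovaSeq. The authors demultiplexed with bcl2fastq, trimmed, and used STAR for alignment to mm10 and for counting. They deposited raw counts for every gene and library. Their second deposited table holds a signal, the counts of each library divided by 1 DESeq2 size factor, here called normalised counts; the ratio of the tables deviated within a library by at most 9.88e-15 of its value. That table holds 24814 genes. Neither the release of the annotation nor the strand setting is stated in the sources used here. Positions and lengths were taken from GENCODE M21.

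Raw counts were tested with edgeR 4.0.16 in R 4.3.3 (TMM factors, mean count above 0, quasi-likelihood fit with the robust option, 6 groups in 1 fit, 12 residual degrees of freedom), with Benjamini-Hochberg adjustment over 26717 genes and a threshold of 0.05. SE is the log2 fold change divided by the square root of F. Border and row >3 were compared with centre and with each other within a site, each SI group with its LI counterpart, and the steps between the sites. The study's methods name DESeq2, run here as an alternative (1.42.0). Other alternatives were RLE factors, library size only, edgeR's filterByExpr, no filter, replicate blocks within site or over all libraries, SI replicate 3 left out and each library left out. Members and gene lists were chosen with earlier results of these data known. Named were all 10 members, up to 3 called pathway genes per direction and comparison with the largest changes, the 3 genes most like a member for 4 members (1 of these genes is not reported here), and Lgr5 and Epcam. Same-numbered libraries deviated together within a site (correlation 0.36 to 0.78 in the SI, 0.44 to 0.68 in the LI) and not regularly across sites (-0.10 to 0.44), so the number was taken as a pairing within a site only. Figures were drawn with matplotlib in Python.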

Additional observations from a re-analysis of the deposited data

Results flagged for a closer look

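The difference between the SI and LI steps of Axin2 from centre to row >3 did not pass the test with all 18 libraries (-1.12, SE 0.80, adjusted p = 0.965, edgeR interaction contrast) or with the replicate block within site (-1.30, adjusted p = 0.136). Of the alternatives run it passed only without the 3 SI libraries of replicate 3, at a log2 difference of -0.98 (SE 0.24, adjusted p = 0.0184). Those libraries were singled out by their likeness to the LI, so this value does not support a difference between the sites.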

How the results depend on the processing

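RLE factors moved no count of called members. In SI row >3 against centre, 6 members were called, against 5 with DESeq2, library size only or no filter and 7 with the block within site. DESeq2 called 3 members in SI row >3 against border (beside 1 in the fit reported), 3 in SI against LI centre (beside 1) and 2 at the border (beside 0). There filterByExpr called 1 member, beside 678 of all genes. The replicate block within site called 1 member in SI border against centre, 3 in LI row >3 against centre, 4 in SI row >3 against border, 5 in SI against LI centre, 3 at the border, 3 in row >3 and 1 in the site difference of row >3 against centre; for comparisons between sites this block leaves out the spread between replicate numbers, so it is no pairing there. The replicate block over all libraries called 2 in SI row >3 against border, 2 in SI against LI centre and 1 at the border, beside 1242, 1499 and 1141 of all genes. No paired fit changed any other call than those given here or in the report. Without SI replicate 3 the counts were 1 in SI border against centre, 1 in LI row >3 against centre, 5 in SI row >3 against border, 1 in LI row >3 against border, 5, 5 and 4 in SI against LI at centre, border and row >3, and 1 in the site difference of row >3 against centre. Leaving out single libraries gave 0 to 1 in SI border against centre, 3 to 6 in SI row >3 against centre, 0 to 4 in SI row >3 against border, 0 to 3, 0 to 2 and 0 to 2 in SI against LI at the 3 levels and 0 elsewhere. Of 44 member values followed, 2 changed sign, both with a single library left out: Sp5 in SI against LI border, 0.76 with all libraries, ranged from -0.10 (without SI border replicate 2) to 1.29, and Tcf7l1 in SI row >3 against centre ranged from -1.36 (without SI row >3 replicate 3) to 2.82.

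Counts over all genes moved more than 1.5 times. In SI row >3 against border 429 genes were called, against 1304 with DESeq2, 2612 with the block within site and 1892 without SI replicate 3, and from 3 to 1522 with single libraries left out. In SI border against centre 3 were called, against 209, 620 and 252, and in LI row >3 against centre 5, against 93, 692 and 497. In SI row >3 against centre the block raised 3518 to 6103. SI against LI gave 532, 468 and 1092 genes at the 3 levels, against 1241, 1212 and 1693 with DESeq2, 3192, 2727 and 3654 with the block within site and 2854, 2121 and 3184 without SI replicate 3. With single libraries left out the counts were 0 to 319 in SI border against centre, 1973 to 3780 in SI row >3 against centre, 0 to 3 in LI row >3 against centre, 180 to 1230, 138 to 863 and 379 to 1686 in SI against LI at the 3 levels, and 0 to 231 in the site difference of row >3 against centre. That site difference gave 0 genes with all libraries, against 149 with DESeq2, 620 with the block within site and 857 without SI replicate 3. With library size only, genes of at least 1 CPM shifted by a median of -0.18 in SI row >3 against centre, and Tcf7l2 stood at 0.40 before that shift is taken off. By the length of the longest transcript in place of the merged exons 36 of 60 levels stayed within 1 SD. By Spearman's rho, 1 of 6 lists of the 3 most similar genes kept at least 2 of its genes. Depth limits Notum and, in the LI, Lef1.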
